A study of Rattus norvegicus with 15 samples.

Results

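Transcripts of 10 inflammatory genes were followed in the multifidus muscle of rats after spinal surgery. The genes were 5 cytokines (Il1b, Il18, Il33, Il6 and Tnf), 2 S100 alarmins (S100a8 and S100a9) and 3 acute-phase genes (A2m, Serpina3n and Lcn2). They were taken by their symbols from the 37991 genes in the count table, and each symbol matched 1 gene. All rats were wild type, and the study's methods describe male Sprague Dawley rats of 12 weeks and 340 to 370 g. The 15 libraries fell into 5 groups: control rats without surgery (2 libraries), surgery alone (2), surgery with pMT (4), surgery with pMT and VitD (4, the pMT/VitD group) and surgery with VitD (3). pMT are mitochondria isolated from human plasma, injected on day 14 after the operation into the left side, with 25 μg in 100 μL of buffer at each site and 50 μg in all. VitD was cholecalciferol at 150 μg per site, 300 μg per rat, and pMT/VitD rats received both doses. The operation joined removal of vertebral lamina with ligation of the left L5 spinal nerve, so muscle injury and loss of nerve supply are present together in every operated group. Surgery and pMT tissue was taken on day 28, and days for the VitD and pMT/VitD groups are not stated. That these groups were operated was taken from the series title. Rats of the surgery group received no injection, so pMT, its buffer and the injection itself cannot be told apart in a comparison with that group. The VitD group was injected without pMT.

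Inflammatory cytokines carry signals between damaged tissue and immune cells. IL-1β, IL-6 and TNF are secreted by activated immune cells, IL-18 and IL-1β are cut to their active form by caspase-1 in the inflammasome, and IL-33 is a nuclear protein of stromal cells that is released when cells are damaged. S100A8 and S100A9 pair into calprotectin, a protein abundant in neutrophils and some monocytes. Acute-phase genes are best known from liver, where IL-6 acting through STAT3 and IL-1 acting through NF-κB and C/EBP factors raise their transcription. Serpina3n encodes a serine protease inhibitor, A2m encodes a broad protease inhibitor that is a classical acute-phase protein of the rat, and Lcn2 encodes an iron-siderophore binding protein of innate immunity.

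The 250 bases before the gene start are shown for 4 members because the factors named above bind known motifs, and these members represent the patterns described below. The sequences are from RefSeq, build GRCr8, which held an entry for 8 of the 10 members. A2m and S100a8 had none. The motifs searched, on both strands, were TTCNNNGAA for STAT, TTNNGCAA for C/EBP and, for NF-κB, GGG, any 2 bases and TTTCC (matches in capitals). Among 33469 windows of the same length, 7.67% held the STAT motif, 1.3% the NF-κB motif and 9.22% the C/EBP motif. The windows lie at chr6:129088142-129088391 (plus strand) for Serpina3n, chr8:59801822-59802071 (plus) for Il18, chr4:5894576-5894825 (minus) for Il6 and chr3:36081781-36082030 (minus) for Lcn2.
Serpina3n: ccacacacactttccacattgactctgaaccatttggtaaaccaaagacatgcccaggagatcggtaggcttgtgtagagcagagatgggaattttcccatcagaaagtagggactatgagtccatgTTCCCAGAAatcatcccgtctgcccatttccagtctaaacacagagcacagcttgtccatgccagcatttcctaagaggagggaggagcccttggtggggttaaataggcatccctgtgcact
Il18: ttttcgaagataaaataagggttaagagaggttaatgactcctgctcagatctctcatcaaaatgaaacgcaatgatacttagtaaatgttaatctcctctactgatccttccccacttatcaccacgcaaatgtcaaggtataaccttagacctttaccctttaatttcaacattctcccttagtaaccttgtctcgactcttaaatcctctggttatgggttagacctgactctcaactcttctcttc
Il6: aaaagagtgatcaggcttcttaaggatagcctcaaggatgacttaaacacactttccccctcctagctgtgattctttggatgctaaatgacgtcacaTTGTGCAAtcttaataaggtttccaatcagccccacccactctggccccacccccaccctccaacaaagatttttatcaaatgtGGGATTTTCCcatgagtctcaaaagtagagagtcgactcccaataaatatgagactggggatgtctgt
Lcn2: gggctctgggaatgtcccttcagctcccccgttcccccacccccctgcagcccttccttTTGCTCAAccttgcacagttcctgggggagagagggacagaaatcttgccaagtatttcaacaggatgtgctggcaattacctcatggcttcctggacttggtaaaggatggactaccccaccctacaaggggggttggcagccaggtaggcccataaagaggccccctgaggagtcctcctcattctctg
Serpina3n held 1 STAT match, TTCCCAGAA, 123 to 115 bases before the start. The Il6 window held an NF-κB match, GGGATTTTCC, at 68 to 59 bases and a C/EBP match, TTGTGCAA, at 152 to 145 bases. In Lcn2 the C/EBP match was TTGCTCAA, on the opposite strand, at 191 to 184 bases. No match was found in the Il18 window. A match is a description of the letters and no test of binding.

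Total counts ranged from 52342134 to 73557878 per library (median 64352162). Levels are given as CPM after TMM scaling, on which 3 counts, taken as the floor, were worth 0.0351 to 0.0648 CPM. The surgery libraries had TMM factors of 1.12 and the VitD libraries 1.09 to 1.20, against 0.924 to 0.933 in the control group, 0.857 to 1.09 in the pMT group and 0.849 to 0.982 in the pMT/VitD group. Of the 10 members, 9 were among the 17201 genes with enough counts for a test. Tnf was not, Il6 entered through 2 libraries with 10 and 13 counts, and A2m entered mainly through the surgery and VitD libraries, where it was high. Compared per length, as the authors' TPM averaged over the 15 libraries, the order was Il33 (15.4 TPM), Lcn2 (6.34), S100a9 (4.25), S100a8 (2.97), Serpina3n (2.59), Il18 (1.51), Il1b (0.624), A2m (0.0931), Il6 (0.0572) and Tnf (0.0530). In bulk muscle, fewer cells of a type and less RNA per cell cannot be told apart. The labels name separate samples and do not say how animals map to libraries, so p-values measure the spread between these samples.

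**Figure D1:**
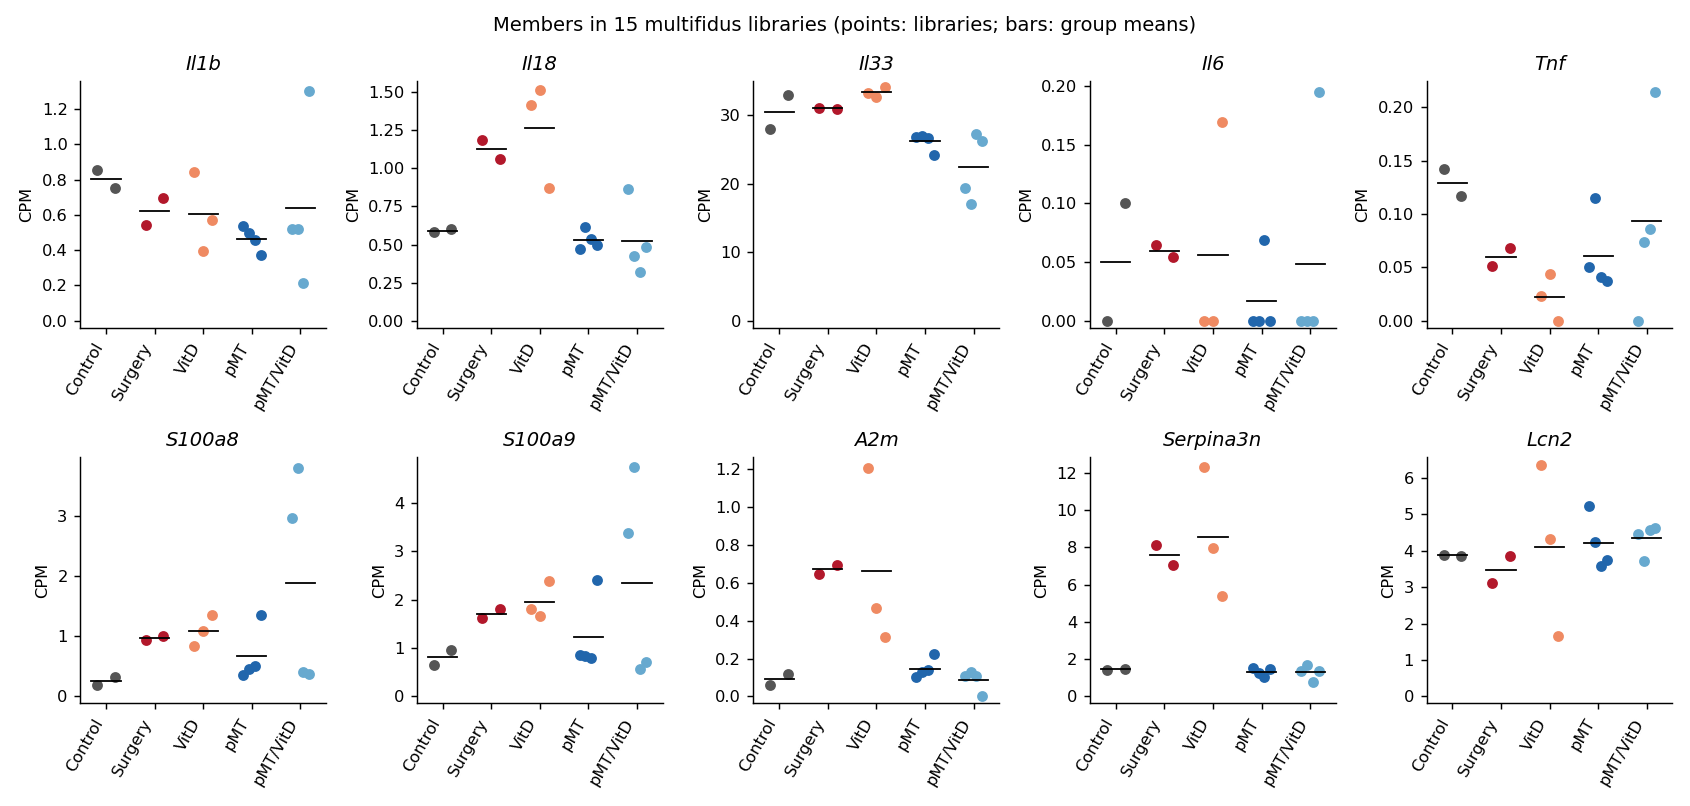
CPM of the 10 genes (linear axis, own scale in each panel) in the control, surgery, VitD, pMT and pMT/VitD groups, with 1 point per library and a bar at the group mean. Serpina3n, A2m and Il18 are high in the surgery and VitD groups, S100a8 and S100a9 split the pMT/VitD group into 2 high and 2 low libraries, and Il6 and Tnf lie near 0 in most libraries.

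A gene was called when its Benjamini-Hochberg adjusted p from edgeR's quasi-likelihood test, fitted to all 15 libraries and adjusted over all 17201 genes, was under 0.05. Across the 5 groups, 3 of the 9 tested members were called, Serpina3n, A2m and Il18, against 11.8% of all genes. In surgery against control, 1 member was called higher (Serpina3n), where 1.25% of all genes were higher and 1.55% were called in either direction. In pMT against surgery, 1 was called lower (Serpina3n), against 1.55% of all genes lower and 1.94% either way. In pMT/VitD against surgery, 2 were called lower (A2m and Serpina3n), against 5.03% lower and 7.44% either way. In pMT/VitD against VitD, 4 were called lower (Il18, Il33, A2m and Serpina3n), against 12.2% lower and 21.9% either way. In VitD against control, 2 were called higher (A2m and Serpina3n), against 5.48% higher and 8.67% either way. The median log2 fold change of the 9 members was 0.93 in surgery against control and -0.56 in pMT against surgery, where the medians of all genes were -0.01 and 0.02. The comparisons share libraries: surgery and control serve in several of them, so their values are not independent of each other.

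No member was called in VitD against surgery, pMT/VitD against pMT, pMT against control, pMT/VitD against control or the interaction of pMT and VitD, and the quasi-likelihood test called 0 of all genes in each of these. At an unadjusted p under 0.05 there were 0, 1, 0, 2 and 0 members in that order. DESeq2 called no member in any of them, and limma voom with quality weights called 0, 3, 0, 1 and 3. Over all genes, those counts were 139, 1737, 528, 496 and 888 at an unadjusted p under 0.05 and 419, 6595, 227, 1822 and 5399 by limma voom, while DESeq2 called 97 genes in pMT/VitD against pMT and 0 in the others. The interaction asks whether the pMT difference depends on VitD, and its interval for Serpina3n ran from -1.05 to 0.66 on the log2 scale.

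**Figure D2:**
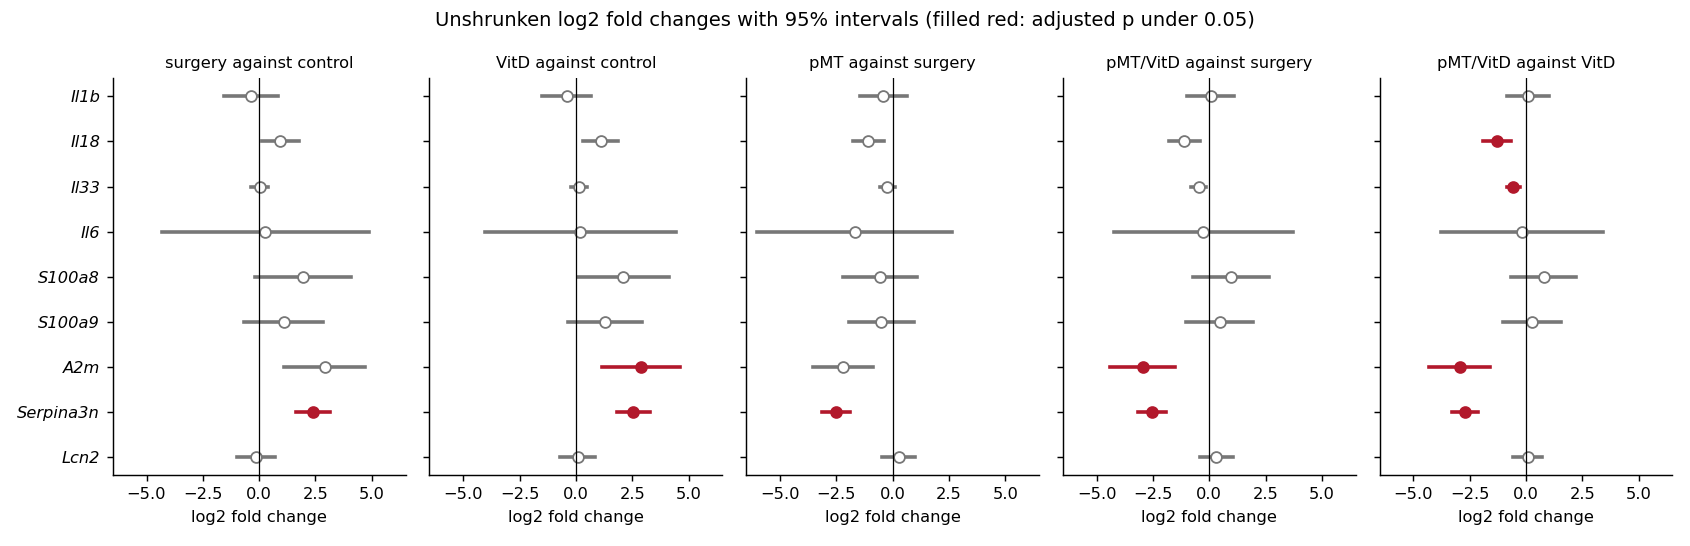
Log2 fold changes (x axis, without shrinkage) of the 9 tested genes in 5 comparisons, with 95% intervals, filled where the adjusted p of the quasi-likelihood test was under 0.05. Serpina3n is filled in all 5 panels, A2m in 3 and Il18 and Il33 in pMT/VitD against VitD, while Il6 has the widest intervals.

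Serpina3n (gene 24795) showed the clearest pattern among the acute-phase genes, high in operated muscle without pMT and at the control level with it. Controls had 91 and 88 counts and rats with surgery alone 630 and 518. The pMT libraries had 91, 98, 77 and 80 counts, the pMT/VitD libraries 64, 91, 36 and 69, and the VitD libraries 1050, 546 and 413. All 5 surgery and VitD libraries (5.37 to 12.3 CPM) therefore lay above all 8 libraries with pMT (0.774 to 1.69 CPM) and above both controls (1.44 and 1.47 CPM), whose range lies inside that of the libraries with pMT. The surgery mean was 5.23-fold the control mean (log2 fold change 2.39, SE 0.359, adjusted p = 0.00773 by the quasi-likelihood test), and the VitD mean was 5.88-fold the control mean (2.56, SE 0.345, adjusted p = 0.00238). It fell in the pMT group to 1.33 ± 0.217 CPM (SD, n = 4) from 7.60 ± 0.761 CPM (SD, n = 2) with surgery alone, 5.72-fold lower (log2 fold change -2.52, SE 0.286, adjusted p = 0.000634). In the pMT/VitD group it stood at 1.30 ± 0.381 CPM (SD, n = 4), lower than with surgery alone (-2.55, adjusted p = 0.000484) and lower than the 8.53 ± 3.49 CPM (SD, n = 3) of the VitD group (-2.71, SE 0.270, adjusted p = 8.39e-05), by the same test. Neither pMT group was distinguishable from control, with 95% intervals of -0.80 to 0.54 for pMT and -0.84 to 0.52 for pMT/VitD. VitD and surgery were not distinguishable either (0.17, interval -0.48 to 0.82).

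The lower level of Serpina3n with pMT held its call in 26 of 26 alternatives against surgery, 25 of 25 for pMT/VitD against surgery and 25 of 25 for pMT/VitD against VitD. Surgery against control was less secure: the adjusted p was 0.137 without Control replicate 1, 0.143 without Control replicate 2 and 0.0854 without Surgery replicate 1, at log2 fold changes of 2.28 to 2.40. VitD against control lost its call without Control replicate 1 (adjusted p = 0.0677 by the quasi-likelihood test) or Control replicate 2 (0.0531). It was also lost with only the 2 groups compared, where 0.579% of all genes were called. Reads of near-identical copies can be mixed, but the relatives in the table were almost uncounted: Serpina3c had 3 counts over all libraries and Serpina3m 0.

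A2m (gene 24153), the broad protease inhibitor, had the same split between libraries at far lower counts, although its group means ranked differently (surgery, VitD, pMT, control and pMT/VitD from the highest). Controls had 4 and 7 counts, rats with surgery alone 50 and 51, and the VitD group 103, 32 and 24. With pMT it had 6, 10, 10 and 12 counts, and with pMT/VitD 5, 7, 5 and 0. The 5 surgery and VitD libraries (0.312 to 1.20 CPM) did not overlap the 8 with pMT (0 to 0.222 CPM) or the controls (0.0631 and 0.117 CPM). Since A2m passed the count filter mainly through those 5 libraries, this separation is given as a description only. A2m was higher in VitD than in control (log2 fold change 2.86, SE 0.803, adjusted p = 0.0398 by the quasi-likelihood test), lower in pMT/VitD than in surgery (-2.94, SE 0.681, adjusted p = 0.0204) and lower in pMT/VitD than in VitD (-2.92, SE 0.636, adjusted p = 0.00570). Surgery against control (2.88, adjusted p = 0.0926) and pMT against surgery (-2.19, adjusted p = 0.0998) missed the threshold by that test, and each passed it without pMT/VitD replicate 4, the library at 0 (0.0389 and 0.0349). The pMT/VitD against surgery call was lost without Surgery replicate 1 (adjusted p = 0.133) or Surgery replicate 2 (0.148). Its VitD against control call was lost on leaving out any of 8 libraries, among them VitD replicate 1, which held 103 of the 159 VitD counts (adjusted p = 0.167). The macroglobulin relatives Mug1, Mug2 and Pzp had 0, 6 and 5 counts in all.

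Lcn2 (gene 170496), the siderophore binding protein, did not follow the other acute-phase genes. Its counts were 246 and 232 in the control group, 242 and 282 with surgery, 311, 331, 261 and 203 with pMT, and 207, 200, 213 and 238 with pMT/VitD. The VitD libraries held both its highest and its lowest value, 543, 298 and 128 counts or 6.35, 4.34 and 1.67 CPM. All 5 groups overlapped, and no comparison reached an adjusted p under 0.05. The log2 fold change was -0.15 (SE 0.397) for surgery against control and 0.27 (SE 0.346, interval -0.47 to 1.01) for pMT against surgery, so changes of this size were not detectable.

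Il18 (gene 29197), the inflammasome-processed cytokine, was higher in operated muscle without pMT, with means of 1.13 CPM (surgery) and 1.27 CPM (VitD) against 0.592 CPM in control. Counts were 37 and 36 in control, 92 and 78 in surgery, and 121, 104 and 67 in VitD libraries. They were 28, 48, 39 and 27 with pMT and 40, 23, 15 and 25 with pMT/VitD. The surgery and VitD libraries (0.872 to 1.51 CPM) lay above the 8 libraries with pMT (0.323 to 0.864 CPM), though VitD replicate 3 and pMT/VitD replicate 1 nearly met at 0.872 and 0.864 CPM. It was lower in pMT/VitD than in VitD (log2 fold change -1.27, SE 0.293, adjusted p = 0.00792 by the quasi-likelihood test). Against surgery, the differences of -1.08 for pMT (adjusted p = 0.110) and -1.10 for pMT/VitD (0.0530) missed the threshold of that test, and the latter passed it without pMT/VitD replicate 1 (-1.44, adjusted p = 0.0162). It passed as well without pMT replicate 4 (0.0498), VitD replicate 1 (0.0460) or VitD replicate 3 (0.0412). Surgery and VitD against control gave 0.93 (adjusted p = 0.230) and 1.10 (0.0703), both uncalled by the quasi-likelihood test. VitD against control passed without pMT/VitD replicate 1 (0.0389) or VitD replicate 3 (0.0290). Limma voom called Il18 higher in surgery than in control (adjusted p = 0.0314), where it called 28.5% of all genes. That tool also called Il18 lower in pMT than in surgery (adjusted p = 0.00225), where it called 37.5%.

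Il33 (gene 361749), the stromal alarmin cytokine and the most abundant member, differed less but was measured with more counts. It had 1778 and 1977 counts in control, 2407 and 2268 in surgery, 2841, 2249 and 2624 in VitD, 1588, 2113, 1940 and 1311 in pMT, and 897, 923, 1268 and 1350 in pMT/VitD libraries. As CPM, the surgery and VitD libraries spanned only 30.9 to 34.2 CPM, the controls 28.1 and 32.9 CPM and the 8 libraries with pMT 17.1 to 27.3 CPM, below every library without pMT. Unlike Serpina3n, it was not higher after surgery (0.02, interval -0.36 to 0.41). It fell in pMT/VitD to 22.5 ± 5.02 CPM (SD, n = 4) from 33.4 ± 0.720 CPM (SD, n = 3) in VitD (log2 fold change -0.57, SE 0.137, adjusted p = 0.0103 by the quasi-likelihood test). The 2 lowest libraries were pMT/VitD replicates 1 and 2, at 19.4 and 17.1 CPM. The differences of -0.24 for pMT (adjusted p = 0.531) and -0.46 for pMT/VitD (0.0822) against surgery were not called, and the latter was called without pMT/VitD replicate 3 (0.0420) or replicate 4 (0.0321).

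Il18, Il33, A2m and Serpina3n thus had the same arrangement, with all 5 surgery and VitD libraries above all 8 libraries with pMT. This split was set up after the values were seen and has no test, and 7.15% of all tested genes had it in the same direction. A2m passed the count filter mainly through the libraries where it was high, so its place in the split is partly set by that filter. Against the controls, the surgery and VitD libraries were all higher for Il18, S100a8, S100a9, A2m and Serpina3n, an arrangement that 21.6% of genes showed. The libraries with pMT all lay above the controls for S100a8 (1.3% of genes higher) and all below them for Il33 (1.06% lower). Over the 15 libraries, the Pearson correlation of log2 CPM was 0.90 for Il18 with Serpina3n, 0.85 for A2m with Serpina3n and 0.77 for Il18 with A2m, as a description of libraries that share groups.

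S100a8 (gene 116547) and S100a9 (gene 94195), the calprotectin genes, moved together and marked single libraries more than groups. S100a8 had 12 and 19 counts in control, 72 and 74 in surgery, 71, 75 and 104 in VitD, 21, 35, 37 and 73 in pMT, and 137, 205, 19 and 19 in pMT/VitD libraries. S100a9 had 41 and 58 counts in control, 126 and 132 in surgery, 155, 114 and 184 in VitD, 51, 65, 58 and 130 in pMT, and 156, 256, 26 and 37 in pMT/VitD libraries. Their log2 CPM correlated at 0.95 over the 15 libraries. pMT/VitD replicates 1 and 2 were the highest of all libraries for both genes, while replicates 3 and 4 of that group were within the range of pMT replicates 1 to 3 or just below it. The ratio of S100a9 to S100a8 counts was 3.05 and 3.42 in control and 1.14 to 2.43 in the operated libraries, with no overlap. The control ratios rest on only 12 and 19 S100a8 counts. How many gene pairs separate in this way was not counted, so nothing is read from the ratio.

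**Figure D3:**
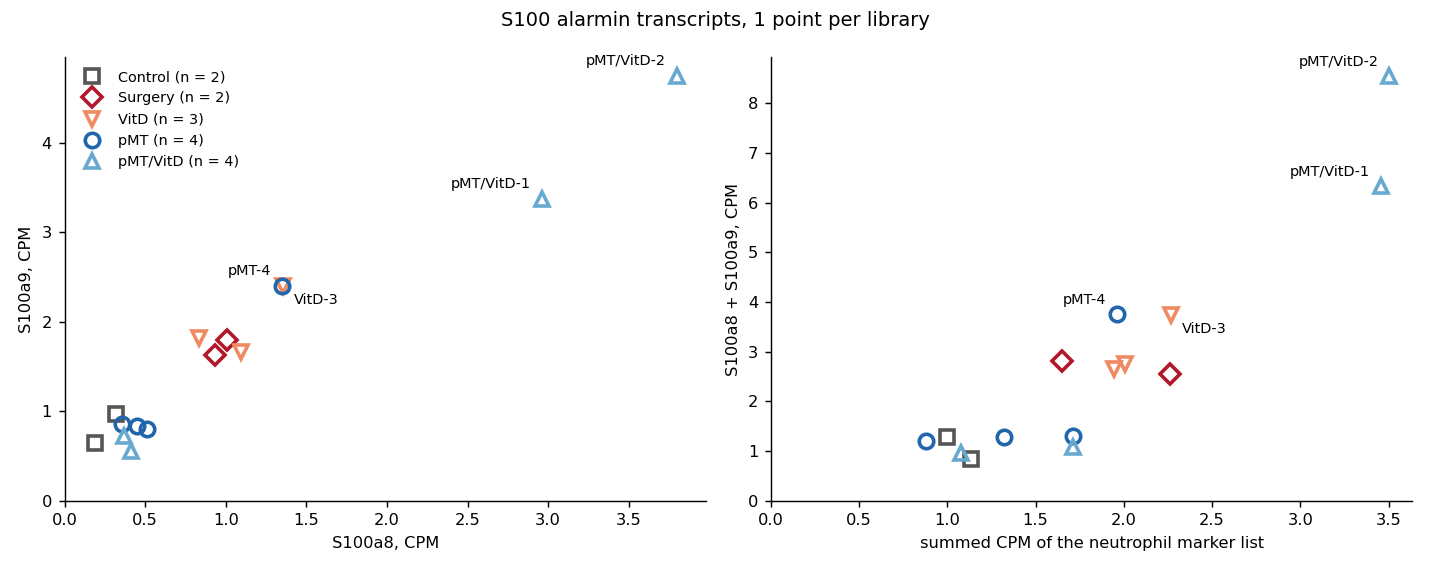
Left, S100a9 against S100a8 (both CPM, linear axes). Right, the sum of both against the summed CPM of 10 neutrophil marker genes, 1 point per library, symbols by group. pMT/VitD-1 and pMT/VitD-2 stand apart at the upper right in both panels, and pMT-4 lies with VitD-3 above the other pMT libraries.

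The quasi-likelihood test as reported called neither S100 gene in any comparison. S100a8 was higher in surgery (log2 fold change 1.93, SE 0.996, adjusted p = 0.342 by the quasi-likelihood test) and in VitD (2.10, SE 0.943, adjusted p = 0.176) than in control without passing the threshold, and pMT/VitD against pMT gave 1.52 (SE 0.644, adjusted p = 0.478). Its largest difference was pMT/VitD against control (2.90, SE 0.933, adjusted p = 0.906 by the same test), also uncalled. Other settings did call them. With only the groups compared, both were higher in surgery than in control (S100a8 1.96, adjusted p = 0.00222, and S100a9 1.12, adjusted p = 0.00690, by the quasi-likelihood test), where 32.4% of all genes were then called. With limma voom, both were higher in pMT/VitD than in pMT (2.27, adjusted p = 0.00399, and 1.69, adjusted p = 0.00679), where that tool called 38.3% of all genes, and both were called in the interaction (adjusted p = 0.0300 and 0.0305), where it called 31.4%. Among the 5 groups, limma voom called S100a9. Without pMT replicate 4 and pMT/VitD replicate 4 the difference of pMT/VitD from pMT was 2.45 for S100a8 and 1.81 for S100a9, and both were called (S100a8 among the 5 groups as well), as were 18.3% of all genes against none with these libraries. For both genes this removes the highest pMT library and 1 of the 2 low pMT/VitD libraries, which widens the difference by construction, so nothing is read from it.

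Neutrophil markers went with these values only in part. Their summed level was 3.46 and 3.50 CPM in pMT/VitD replicates 1 and 2 and 0.876 to 2.26 CPM elsewhere. Mpo, the granule peroxidase, had its highest counts, 69 and 91, in those libraries, and Camp, the cathelicidin granule peptide, had its highest too, 36 and 31. The receptors did not: Csf3r, the receptor of the granulocyte growth factor, was at 0.497 and 0.463 CPM there against 0.573 to 1.04 CPM in surgery and VitD libraries, and Cxcr2, the neutrophil chemokine receptor, was at 0.0432 CPM (2 counts, the lowest of all) and 0.130 CPM, with its highest level, 0.448 CPM, in pMT/VitD replicate 4. Ltf was at 0 in every library and 7 of the 10 markers, Ltf among them, in at least 1, so these levels rest on few counts, and their part in the S100 values was not tested.

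The classical inflammatory cytokines Il1b (gene 24494), Il6 (gene 24498) and Tnf (gene 24835) were scarce in every group. Il1b had 54 and 45 counts in control, 42 and 51 in surgery, 72, 27 and 44 in VitD, 32, 39, 33 and 20 in pMT, and 24, 28, 10 and 67 in pMT/VitD libraries. The surgery (0.543 and 0.696 CPM) and pMT libraries (0.370 to 0.539 CPM) lay below the controls (0.750 and 0.852 CPM). The VitD libraries (0.393 to 0.842 CPM) overlapped the controls. The share of all genes with this order was not counted, so nothing is read from it. The lowest and the highest Il1b level of all, 0.215 and 1.30 CPM, were both in the pMT/VitD group. Its log2 differences were -0.37 (interval -1.57 to 0.83) for surgery against control and -0.41 (-1.45 to 0.64) for pMT against surgery, neither called. Il6 had 0 counts in 9 of 15 libraries. The others were Control replicate 2 with 6 counts, the surgery libraries with 5 and 4, pMT replicate 3 with 5, pMT/VitD replicate 4 with 10 and VitD replicate 3 with 13. Its interval for pMT against surgery ran from -6.02 to 2.65, and the quasi-likelihood test did not call it. Limma voom did call Il6 lower there (log2 fold change -2.995, adjusted p = 0.0161), in a comparison where it called 37.5% of all genes, on 5 and 4 counts against 5 counts in 1 of 4 pMT libraries. Tnf had 9 and 7 counts in control, 4 and 5 in surgery, 2, 3 and 0 in VitD, 3, 9, 3 and 2 in pMT, and 0, 4, 4 and 11 in pMT/VitD libraries, with 7 libraries at or under 3 counts. Tested without the filter, Tnf gave no adjusted p under 0.05 in any comparison, the smallest unadjusted p being 0.0700 for VitD against control. A library at 0 counts allows up to 3 counts, or at most 0.0648 CPM, and such limits cover counting error only.

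Around these members, 91 further genes of the same pathways were listed with earlier results of these data known, of which 67 were tested. In surgery against control the quasi-likelihood test called 0 (median log2 fold change 0.17, all genes -0.01), against 15 at an unadjusted p under 0.05, 4 by DESeq2 and 23 by limma voom, where the shares of all genes were 17%, 2.53% and 28.5%. In pMT against surgery it called 1, Nfkb2, an NF-κB subunit, which fell by 0.58 (adjusted p = 0.0404 by the quasi-likelihood test). In pMT/VitD against surgery 4 were called: Lbp, the acute-phase lipopolysaccharide binding protein, fell by 1.06, Il6st, the shared signalling receptor of the IL-6 family, by 0.56 and Nfkb2 by 0.49, while Agt, angiotensinogen, was higher by 0.76. In VitD against control 5 were called: Lbp (1.42), Cp, the copper protein ceruloplasmin (0.85), Nfkb2 (0.67) and Il34, a ligand of the macrophage receptor Csf1r (0.60), were higher, and Nfkbia, the NF-κB inhibitor, was lower (-0.89). Of the 12 tested acute-phase relatives, 5 differed among the 5 groups (Agt, Cp, Lbp, Lrg1 and Timp1), as did Il6st, Nfkb2 and Nfkbia. The quasi-likelihood calls in these comparisons are to be read against the shares of all genes given above.

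Most pathway calls came from pMT/VitD against VitD, 16 of 67, with 12 lower and 4 higher. Among all genes, 21.9% were called there in either direction and 12.2% were called lower. The count of 16 is near the share of all genes, so it is not read as a result about these pathways. The acute-phase genes Lbp (log2 fold change -1.33), Timp1, a metalloprotease inhibitor (-1.07), and Cp (-0.74) were lower, and Agt (0.72) was higher. Lbp is given as 1 example of the level: 1.80 and 1.96 CPM in control, 3.51 and 4.85 CPM in surgery, 3.80 to 6.32 CPM in VitD, 1.82 to 2.66 CPM in pMT and 1.44 to 3.07 CPM in pMT/VitD libraries. The share of all genes with this order of libraries was not counted, so nothing is read from it. Receptors and their adaptor were lower too: Il1r1 for IL-1 (-0.68), Il6st (-0.60), Tnfrsf1a for TNF (-0.54), Tlr4 (-0.66) and Myd88 (-0.49). Among signalling genes, Nfkb2 (-0.58) and Stat3 (-0.56) were lower, while Nfkbia (0.91) and Cebpd (0.90) were higher. The cytokines Tgfb1 (-0.58) and Il34 (-0.44) were lower and Il15, which muscle fibres express, was higher (0.70). All 8 inflammasome genes were tested, and the quasi-likelihood test called 0 in each comparison, where at most 4 had an unadjusted p under 0.05, DESeq2 called at most 1 and limma voom at most 6. All 3 of these highest counts occurred in VitD against control, where the shares of all genes were 25.8%, 6.37% and 37.4%. Casp1, which cuts IL-18 and IL-1β, gave 0.72 in surgery against control (adjusted p = 0.242 by the quasi-likelihood test). Of the classical liver acute-phase genes, 6 had 0 counts in every library (Orm1, Fga, Fgb, Hamp, Apcs and Ambp).

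The marker sums of macrophages, fibro-adipogenic cells and T cells split the operated libraries as Il18, Il33, A2m and Serpina3n did. Those of the other listed cell types overlapped between operated libraries with and without pMT. The summed level of 10 macrophage markers, none at 0 in any library, was 306 and 323 CPM in control, 514 to 803 CPM in the 5 surgery and VitD libraries and 237 to 345 CPM in the 8 with pMT. The 6 fibro-adipogenic (stromal) markers, none at 0, spanned 2633 to 2657, 3869 to 7383 and 1948 to 3067 CPM in the same sets, and T cell markers 34.9 to 37.6, 59.2 to 74.6 and 19.7 to 39.8 CPM. Cd4, which rat macrophages also express, carried nearly all of the T cell sum, with 1009 to 6085 counts per library against 0 to 123 for each of the 5 other T cell markers. Both the macrophage and stromal sums therefore had the arrangement of Serpina3n. Collagens weighed heavily in the stromal sum, with 46013 to 333932 counts of Col3a1 and 16304 to 152033 of Col1a1 per library. Dcn had 24963 to 63613 counts and Pdgfra 1230 to 3483. The stromal sum, and the ratios to it below, therefore depend largely on collagen transcripts and do not count stromal cells. Muscle fibre markers, the check of the labelled tissue, were high throughout, though not equal between sets. They summed to 153040 and 166050 CPM in control, 102320 to 140950 CPM in surgery and VitD and 134810 to 178440 CPM with pMT. Hepatocyte markers summed to 0 to 0.277 CPM in the operated libraries, with Apoa2 and Ahsg at 0 in every library.

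**Figure D4:**
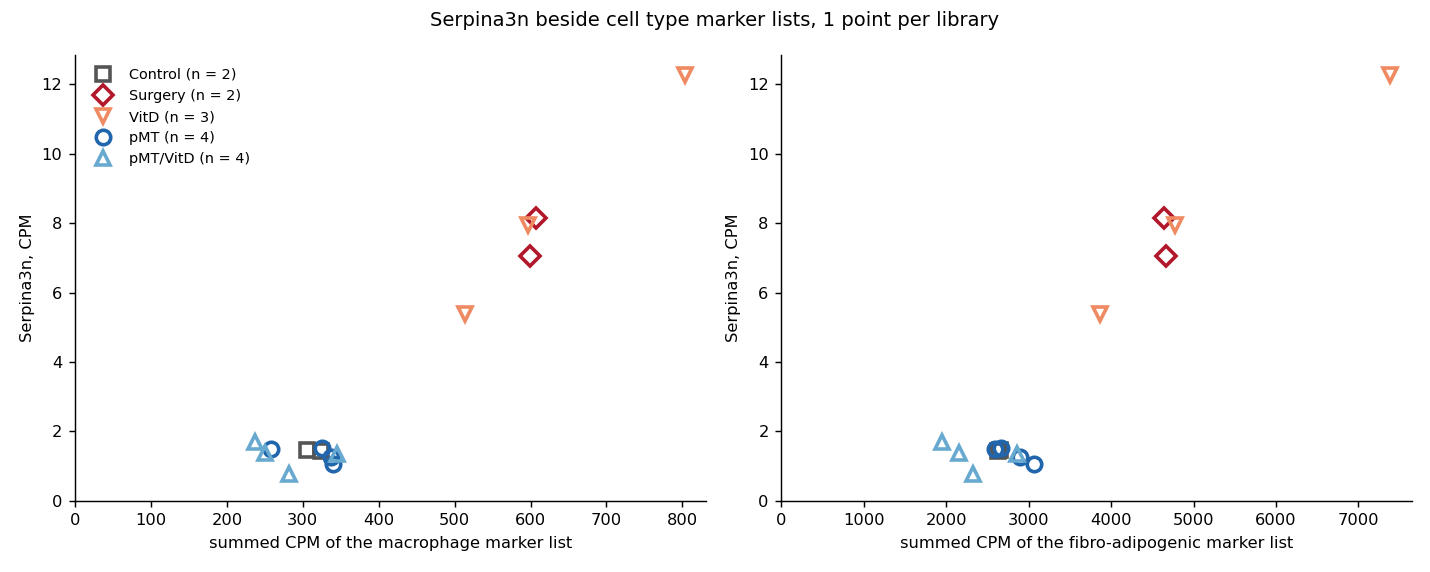
Serpina3n (CPM) against the summed CPM of macrophage (left) and fibro-adipogenic markers (right), linear axes from 0, 1 point per library, symbols by group. The 5 surgery and VitD libraries lie apart from the 10 others on both axes.

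Set against these sums, the members differed. Serpina3n per 1000 CPM of macrophage markers was 4.44 and 4.80 in control, 10.5 to 15.3 in surgery and VitD and 2.74 to 7.11 in the libraries with pMT, and per 1000 CPM of stromal markers 0.545 and 0.552, 1.39 to 1.76 and 0.333 to 0.866. The surgery and VitD libraries did not overlap the others on either ratio. How many genes separate on such ratios was not counted, so nothing is read from this. For Il18 the ratio to macrophage markers overlapped, at 1.80 and 1.96, 1.70 to 2.54 and 1.14 to 3.46. A2m ratios overlapped as well, at 0.608 to 1.50 without pMT and 0 to 0.861 with it. Il33 per 1000 CPM of macrophage markers ran the other way, 41.4 to 66.4 in surgery and VitD against 72.1 to 96.6 with pMT and 86.7 and 108 in control, while per 1000 CPM of stromal markers the operated sets met, at 4.50 to 8.83 without pMT and 8.72 to 11.7 with it. For Il18 and A2m the ratios to stromal markers overlapped too (Il18 0.192 to 0.317 without pMT and 0.139 to 0.402 with it, A2m 0.0807 to 0.163 and 0 to 0.0855). These ratios are descriptions, and the part of the cell types in the member levels was not tested.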

How the data were processed

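RNA of rat multifidus was read as paired ends on NovaSeq instruments, giving 15 libraries. According to the study's methods and the submitters' processing notes, reads were trimmed with Trimmomatic 0.38, aligned to rn6 with HISAT2 2.1.0 and RefSeq annotation, sorted with SAMtools 1.9 and quantified with StringTie 2.1.3b. The authors deposited read counts per gene without normalization, together with TPM and FPKM values. TPM deposited by the authors served only to order genes by level and to derive relative gene lengths, and the deposited FPKM were not used. How strand and reads of several genes were handled is not given in the sources used here.

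Groups came from the sample labels. Counts were tested in R 4.3.3 with edgeR 4.0.16 (glmQLFit with robust estimation and glmQLFTest), TMM factors and filterByExpr, which kept 17201 of 37991 genes, in 1 fit of all 15 libraries. P-values were adjusted by the Benjamini-Hochberg method over all genes tested. The 9 pairwise comparisons, a test among 5 groups and the interaction of pMT and VitD were run. Standard errors and 95% intervals are for unshrunken log2 fold changes, while printed fold changes carry edgeR's prior count. Log2 CPM used a prior count of 2. Alternatives were RLE factors (edgeR) or library size only, other filters, DESeq2 1.42.0, limma 3.58.1 voom with quality weights, only the groups compared, edgeR's exactTest, a replicate block, a removed length trend, and libraries left out. Tests were checked on simulated data with known changes. No pair of libraries of 1 group agreed within sampling noise (chi-square per gene 4.66 to 446).

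The members and all lists (7 of pathway genes, 10 of cell type markers) were chosen with earlier results of these data known. Named genes were all members, the called and at most the 3 most abundant pathway genes of a list, and, for each member averaging 0 or more on the log2 CPM scale, the 3 genes most correlated with it among those averaging 1 or more. Examples outside this rule were chosen after their values were seen. Promoter windows came from RefSeq (GRCr8), whose coordinates were not mixed with rn6.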

Additional observations from a re-analysis of the deposited data

Results flagged for a closer look

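In groups of 4 libraries, 20 sets of member levels were checked against Dixon's 95% limit. It bounds the part of the group's range that a library's gap to the nearest other may take. In 5 sets a library passed it, where about 1 would be expected of independent, normally distributed sets. The sets are not independent, since S100a8 and S100a9 moved together, so the 5 flagged sets are not read against that number. Of these, 3 concerned pMT replicate 4. Its S100a8 level was 1.35 CPM, while the rest of its group had 0.354 to 0.510 CPM, and 2.40 CPM of S100a9 against 0.799 to 0.859 CPM. Its Il33 level was the lowest of the group, 24.2 CPM against 26.7 to 27.0 CPM. The other 2 were Il6 values that rest on a few counts: pMT replicate 3 at 0.0689 CPM (5 counts) and pMT/VitD replicate 4 at 0.195 CPM (10 counts), where the other libraries of each group had 0 counts. With the others tied at 0, any count in the remaining library passes the limit, so these flags carry no weight. Groups of 2 or 3 libraries were not examined in this way.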

How the results depend on the processing

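No member value that was called, in the analysis as reported or in an alternative, changed direction. Of the values of single members, 766 kept their direction and side of the threshold under alternatives other than leaving out 1 library, 40 passed the threshold only there, 7 lost it and 44 changed sign with no call either way. The number of members called moved as follows, with the share of all genes called under the same setting in brackets. Among the 5 groups it was 6 with limma voom (66.6%) and 5 without pMT replicate 4 and pMT/VitD replicate 4 (29.8%), where the share as reported was 11.8%. In surgery against control (1.55% as reported) it was 2 with library size only (5.8%), DESeq2 (2.53%) or without those libraries (4.17%), 3 with limma voom (28.5%) and 5 with only the groups compared (32.4%). In pMT against surgery (1.94%) it was 2 with DESeq2 (1.91%) or without those libraries (3.15%), 5 with limma voom (37.5%), and 3, namely Il18, A2m and Serpina3n, with only the groups compared (3.13%) or edgeR's exactTest (7.18%). In pMT/VitD against surgery (7.44%) it was 4 with library size only (18.9%) or limma voom (39.4%) and 1 with only the groups compared (5.12%) or the replicate block (2.03%). In pMT/VitD against pMT (0%) it was 3 with limma voom (38.3%) and 2 without those libraries (18.3%). In pMT/VitD against VitD (21.9%) it was 2 with only the groups compared (11.3%), which lost Il18 and Il33. In VitD against control (8.67%) it was 1 with at least 10 counts in every library (11.2%), a filter that drops A2m, 4 with limma voom (37.4%), 0 with only the groups compared (0.579%) and 1 with the replicate block (7.55%). With limma voom it was 1 in pMT/VitD against control (10.6%) and 3 in the interaction (31.4%). The cause was not tested. With 1 library left out, the counts were 2 to 4 among the 5 groups, 0 to 2 in surgery against control, 1 to 2 in pMT against surgery, 1 to 3 in pMT/VitD against surgery, 4 to 4 in pMT/VitD against VitD, 0 to 3 in VitD against control and 0 to 0 elsewhere.

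Deviations from the group means correlated at -0.499 to 0.169 between same-numbered libraries (median 0.0103, 24 pairs). Between different-numbered libraries they correlated at -0.287 to 0.431 (median -0.00431, 64 pairs). In groups of 2 the deviations mirror each other, so this check cannot exclude that the numbers pair the libraries. The replicate block removed the A2m calls in VitD against control (adjusted p = 0.0675 by the quasi-likelihood test) and pMT/VitD against surgery (0.0989), kept that in pMT/VitD against VitD (0.0259) and changed no other member call. With library size only, the median of all genes moved to 0.25 in surgery against control, -0.12 in pMT against surgery, -0.32 in pMT/VitD against surgery, -0.34 in pMT/VitD against VitD and 0.27 in VitD against control, and Serpina3n stayed at 2.65, -2.67, -2.87, -3.08 and 2.86. RLE factors and a removed length trend moved no count of members by over 1.5 times. With the length trend removed, Il18 was called lower in pMT/VitD than in surgery (-1.35, adjusted p = 0.0237 by the quasi-likelihood test). S100a8 then moved from 0.96 to 0.46 in pMT/VitD against surgery and from 1.52 to 1.10 in pMT/VitD against pMT. For S100a9 in pMT/VitD against VitD the value went from 0.27 to -0.24. These S100 values were uncalled either way. Depth limits Il6 and Tnf most, with 9 and 7 libraries at or under 3 counts.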

Other observations

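The genes whose log2 CPM followed each of the 4 more abundant members most closely over the 15 libraries, among 11399 candidates, are given as a description, since libraries share groups and scaling. For Serpina3n they were Klk1, the tissue kallikrein (Pearson r = 0.98), and Zfp36l2, an RNA-binding protein, with LOC100911319, listed as a Zfp36l2-like gene whose reads may be shared with it (both 0.98). For Il33 they were Gas7 (0.93), Rnf219 (0.92) and Dpp4, a cell surface peptidase (0.92). For S100a9 they were Col22a1 (0.95), Kmt5a (0.94) and Sarnp (0.93). For Lcn2 the closest were weaker: Sept5 (0.80), LOC100911825 and Irgm2, an interferon-induced GTPase (both 0.76).

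Erythroid marker genes summed to 373 and 388 CPM in control, 197 to 379 CPM in surgery and VitD and 302 to 810 CPM in the libraries with pMT. Mast cell markers summed to 12.9 to 24.9 CPM over all libraries and endothelial markers to 203 to 302 CPM. B and plasma cell markers had 0.583 and 0.994 CPM in control, 1.64 to 3.18 CPM in surgery and VitD and 0.640 to 1.94 CPM with pMT.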
